A study of Mus musculus with 12 samples.

Results

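A set of 10 genes for proteins that the liver secretes into plasma was followed across all libraries of the series: Alb, Afp, Ttr, Trf, Ahsg, Hp, Hpx, Ambp, Rbp4 and Pzp. They were chosen by name, and all 10 were found among the 19937 genes that the arrays measured with a row naming 1 gene. Each had 1 such row, so no choice between rows was needed. Expression was measured in mouse liver cells and liver organoids, which are cell clusters grown in culture, with 12 MoGene 1.0 ST arrays from Affymetrix, for 3 libraries in each of 4 groups. Amplified total RNA was hybridised, and the deposited intensities were put on a log2 scale, on which 1 unit is a doubling.

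The strain background was C57Bl6 in every group. The library type called uninduced hepatocytes came from YFP-positive liver cells sorted by FACS, without Yap induction. Wild-type organoids were cultured for 2 weeks under conditions labelled wild-type. Yap-off organoids came from livers in which Yap, the transcriptional coactivator that the Hippo pathway restrains, had been on for 3 weeks, and were then cultured for 2 weeks without doxycycline, with Yap off. Yap-on organoids had the same 3 weeks in the animal and were cultured for 2 weeks with doxycycline, so that Yap stayed on. Doxycycline and Yap therefore changed together between these groups, and cannot be told apart. The Yap allele, its driver, the age of the animals and the origin of YFP are not given in the labels. Whether the replicates of a group were different animals is not stated, so the p-values reflect only how far these libraries vary, and that variation may be technical.

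Hepatocytes make most plasma carrier proteins and release them into the blood. Albumin, from Alb, carries fatty acids, bilirubin and many drugs, and alpha-fetoprotein, from Afp, is its fetal relative, made by yolk sac and fetal liver and largely silenced in hepatocytes after birth. The other carriers bind thyroid hormone and retinol (Ttr, Rbp4), iron (Trf), haemoglobin (Hp) or haem (Hpx), while Ambp, Ahsg and Pzp encode a precursor of a small carrier and a protease inhibitor, an inhibitor of mineral deposition, and a protease inhibitor of the macroglobulin family.

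Promoters are shown for the neighbouring genes Alb and Afp, whose signal in Yap-on organoids was near background, and for Ambp, whose signal there was not. Afp is the next gene after Alb on chromosome 5, and Afm follows. The windows run from 250 bases before to 50 bases after the start annotated by RefSeq on GRCm38.p6, 5′ to 3′ on the gene's strand, at chr5:90460620-90460919 (+) for Alb, chr5:90490464-90490763 (+) for Afp and chr4:63154123-63154422 (-) for Ambp. Capitals mark exact matches to GTTAAT, a core of the site bound by HNF1 factors, to CCAAT and to TATAAA, each searched on both strands, so that ATTGG is CCAAT on the opposite strand.
Alb: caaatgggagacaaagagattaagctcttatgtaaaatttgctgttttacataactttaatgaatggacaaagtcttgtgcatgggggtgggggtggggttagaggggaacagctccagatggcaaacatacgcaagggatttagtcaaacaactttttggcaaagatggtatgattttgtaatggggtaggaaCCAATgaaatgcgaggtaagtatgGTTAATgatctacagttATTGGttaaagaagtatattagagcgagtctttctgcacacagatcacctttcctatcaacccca
Afp: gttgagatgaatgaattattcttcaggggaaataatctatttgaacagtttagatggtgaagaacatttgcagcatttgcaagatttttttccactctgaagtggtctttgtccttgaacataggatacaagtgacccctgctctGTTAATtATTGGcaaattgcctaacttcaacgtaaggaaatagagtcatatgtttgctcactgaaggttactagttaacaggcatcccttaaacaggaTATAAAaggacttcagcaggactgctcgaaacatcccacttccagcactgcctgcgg
Ambp: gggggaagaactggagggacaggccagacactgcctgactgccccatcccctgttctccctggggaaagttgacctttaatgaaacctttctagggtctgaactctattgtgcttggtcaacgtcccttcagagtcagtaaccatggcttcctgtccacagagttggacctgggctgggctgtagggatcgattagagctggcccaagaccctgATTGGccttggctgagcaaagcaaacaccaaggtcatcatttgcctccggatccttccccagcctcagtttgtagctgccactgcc
GTTAAT began 32 bases before the start of Alb and 105 bases before that of Afp. CCAAT began 56 bases before the start of Alb on the gene's strand. On the opposite strand its match began 15 bases before the start in Alb, 98 in Afp and 36 in Ambp. TATAAA began 7 bases before the annotated start of Afp, and none of the capitalised matches overlapped. RefSeq windows were searched for 7 of the 10 genes, and not for Ttr, Trf and Hp. The counts below therefore leave out Ttr, which like Ambp kept a signal in Yap-on organoids. That no window was searched for these genes does not show that RefSeq lacks one. Rbp4 had 2 windows, so that there were 8. GTTAAT was present in 3 of these 8 windows (Alb, Afp and Pzp), against 7.1% of 32817 windows of the same length. CCAAT was present in 6 of 8, against 37.4%, and TATAAA in 2 of 8 (Afp and the Rbp4 window without CCAAT), against 13.6%. GGAATG, a core bound by the TEAD factors that recruit Yap, was in 0 of 8, against 14.7%. These matches describe letters in the windows, and binding was not measured.

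Labels and expression went against each other in the hepatocyte and wild-type groups. The library labelled hepatocyte 2 had macrophage and ductal markers like those of the wild-type-labelled libraries 1 and 3. In the same markers the library labelled wild-type organoid 2 was like the hepatocyte-labelled libraries 1 and 3. Lyz2, a macrophage lysozyme, had a log2 intensity of 12.04 in the library labelled hepatocyte 2, while wild-type organoid 1 and 3 gave 11.56 and 12.16. It lay between 5.28 and 6.30 in hepatocyte 1 and 3 and wild-type organoid 2. Krt19, a keratin of bile ducts, ran the other way, at 4.95, 4.28 and 4.92 in the first 3 libraries and at 10.21, 9.82 and 9.28 in hepatocyte 1 and 3 and wild-type organoid 2. Hepatocyte markers outside the 10 genes did not follow this likeness. Their median log2 intensity was 3.73 in wild-type organoid 2, against 7.21 and 7.31 in hepatocyte 1 and 3. The data do not tell which labels, if any, are wrong. Each result that rests on these groups is therefore given with and without hepatocyte 2 and wild-type organoid 2. Those 2 libraries were picked by their expression, and Afp followed the split seen in Lyz2 and Krt19. P-values of fits without them therefore do not stand as independent tests. The correlation between libraries of a group over all genes was 0.822 to 0.989 for hepatocytes and 0.800 to 0.970 for wild-type organoids, against 0.975 to 0.983 for Yap-off and 0.992 to 0.995 for Yap-on organoids. Array background was taken as the 95th percentile of 1027 olfactory receptor genes, known for their use in the nose, and lay between 3.20 and 3.65 on the log2 scale. With bulk RNA, fewer cells of a type and less RNA per cell cannot be told apart.

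Keeping Yap on in culture went with near loss of signal for 8 of the 10 genes. Alb, Afp, Trf, Ahsg, Hp, Hpx, Rbp4 and Pzp were between 7.74 and 9.46 log2 units lower in Yap-on than in Yap-off organoids. Ttr and Ambp were lower by 1.05 and 1.03 and kept a signal far above background. All 10 passed the test as lower (limma, adjusted p of 1.22e-07 to 6.52e-04), where 12% of all genes were called lower and 19.1% higher. The median log2 difference of the 10 was -8.50, against -0.08 over all genes. In all 10 every Yap-on library lay below every Yap-off library, as was so for 28.9% of all genes.

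**Figure D1:**
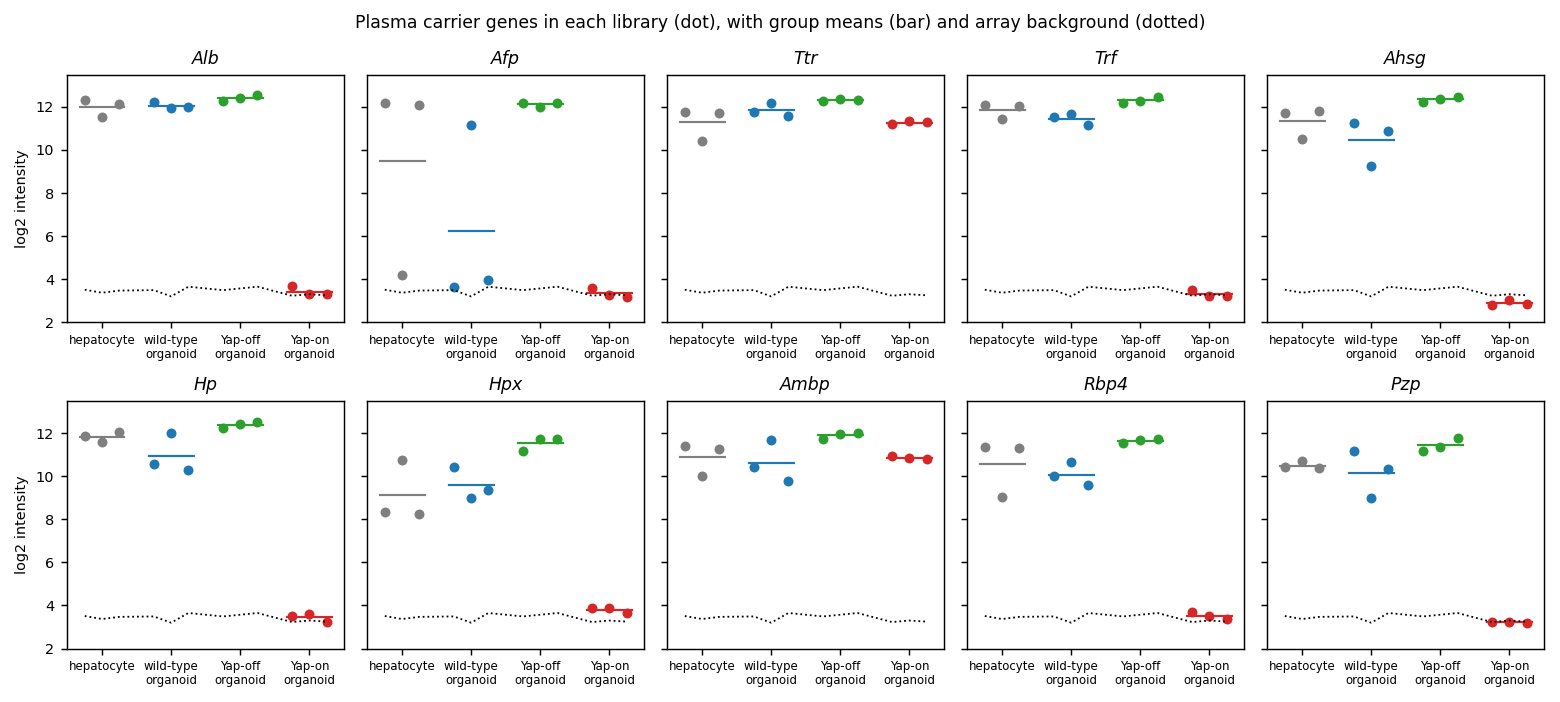
Log2 intensity (vertical axis) of each of the 10 genes in the 12 libraries, by labelled group, with a dot per library, a bar at the group mean and a dotted line at the array background. Yap-on libraries sit near the background for 8 genes and at 10.80 or above for Ttr and Ambp, while Afp splits both the hepatocyte and the wild-type group.

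Alb had log2 intensities of 12.26, 12.42 and 12.54 in Yap-off organoids and of 3.68, 3.29 and 3.31 in Yap-on organoids. The hepatocyte-labelled libraries gave 12.33, 11.53 and 12.13, and the wild-type-labelled libraries 12.23, 11.94 and 12.01. Albumin signal was thus high in every library outside the Yap-on group, where 1 of 3 libraries was at or under background. The difference between Yap-on and Yap-off organoids was -8.98 ± 0.14 (SE, n = 3 and 3, limma, adjusted p = 1.41e-07).

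Afp had log2 intensities of 12.18, 11.99 and 12.16 in Yap-off organoids and of 3.58, 3.25 and 3.19 in Yap-on organoids. It gave 12.20, 4.17 and 12.10 in the hepatocyte-labelled libraries 1, 2 and 3, and 3.64, 11.16 and 3.96 in the wild-type-labelled libraries 1, 2 and 3. The fetal gene was therefore high in Yap-off organoids, hepatocyte 1 and 3 and wild-type organoid 2, and low in the other libraries, with nothing between 4.17 and 11.16. The spread within the hepatocyte label was 4.61 (SD, n = 3) and within the wild-type label 4.25, against 0.10 in Yap-off and 0.21 in Yap-on organoids. Between Yap-on and Yap-off organoids the difference was -8.77 ± 0.13 (SE, limma, adjusted p = 1.22e-07), and 2 of 3 Yap-on libraries were at or under background. Afp minus Alb changed by 0.21 log2 units from Yap-off to Yap-on organoids (exact two-sided permutation p = 0.3, where 0.1 is the smallest p that 3 against 3 allows). Both genes were near background in Yap-on organoids, so their difference there compares readings at the floor.

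Ttr and Rbp4 encode proteins that circulate together, transthyretin carrying thyroxine and holding retinol-binding protein 4, which carries retinol. Ttr had log2 intensities of 12.26, 12.38 and 12.33 in Yap-off organoids and of 11.20, 11.32 and 11.29 in Yap-on organoids. In the hepatocyte-labelled libraries it gave 11.78, 10.41 and 11.70, and in the wild-type-labelled libraries 11.77, 12.20 and 11.59. Yap-on organoids were below every Yap-off library but within the range of the hepatocyte-labelled libraries. The difference of -1.05 ± 0.09 (SE, limma, 95% interval -1.27 to -0.83, adjusted p = 2.77e-04) was a fold of 2.07. Fitted with all 12 arrays it lost its call, at an adjusted p of 0.0632.

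Rbp4 had log2 intensities of 11.53, 11.69 and 11.74 in Yap-off organoids and of 3.69, 3.53 and 3.37 in Yap-on organoids. Hepatocyte-labelled libraries gave 11.37, 9.02 and 11.32, and wild-type-labelled libraries 10, 10.65 and 9.58. Rbp4 was thus near background with Yap on, all 3 libraries lying just above it, and lowest elsewhere in the library labelled hepatocyte 2. The difference between Yap-on and Yap-off organoids was -8.12 ± 0.12 (SE, limma, adjusted p = 1.22e-07).

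Trf encodes transferrin, which carries iron in plasma. It had log2 intensities of 12.18, 12.27 and 12.44 in Yap-off organoids and of 3.49, 3.22 and 3.20 in Yap-on organoids. The hepatocyte-labelled libraries gave 12.07, 11.43 and 12.02, and the wild-type-labelled libraries 11.51, 11.68 and 11.18. All 9 libraries without Yap kept on in culture were high, and 2 of 3 Yap-on libraries were at or under background. Yap-on was below Yap-off by -8.99 ± 0.12 (SE, limma, adjusted p = 1.22e-07).

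Hp encodes haptoglobin, which captures free haemoglobin. It had log2 intensities of 12.22, 12.42 and 12.52 in Yap-off organoids and of 3.53, 3.61 and 3.25 in Yap-on organoids. In the hepatocyte-labelled libraries it gave 11.88, 11.59 and 12.03, and in the wild-type-labelled libraries 10.56, 12.01 and 10.27. Wild-type organoid 2 sat with the hepatocyte libraries for this gene, and wild-type organoid 1 and 3 below them. The difference between Yap-on and Yap-off organoids was -8.92 ± 0.14 (SE, limma, adjusted p = 1.22e-07).

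Hpx encodes hemopexin, which captures free haem. It had log2 intensities of 11.19, 11.72 and 11.72 in Yap-off organoids and of 3.90, 3.88 and 3.65 in Yap-on organoids. Hepatocyte-labelled libraries gave 8.33, 10.75 and 8.26, and wild-type-labelled libraries 10.45, 8.99 and 9.38. Hpx ran opposite to Afp among the hepatocyte libraries, being highest where Afp was lowest, and Yap-off organoids exceeded every other library. The difference between Yap-on and Yap-off organoids was -7.74 ± 0.17 (SE, limma, adjusted p = 3.83e-07), and all 3 Yap-on libraries lay above background.

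Ambp encodes a precursor that is cut into alpha-1-microglobulin, a small haem- and radical-binding carrier, and bikunin, the protease inhibitor chain of the inter-alpha-trypsin inhibitor. It had log2 intensities of 11.74, 11.94 and 12.01 in Yap-off organoids and of 10.95, 10.85 and 10.80 in Yap-on organoids. In the hepatocyte-labelled libraries it gave 11.38, 10.02 and 11.25, and in the wild-type-labelled libraries 10.42, 11.67 and 9.78. Yap-on organoids lay below all Yap-off libraries but above hepatocyte 2 and wild-type organoid 1 and 3. The difference was -1.03 ± 0.11 (SE, limma, 95% interval -1.29 to -0.77, adjusted p = 6.52e-04), a fold of 2.04. With all 12 arrays in the fit the call was lost, at an adjusted p of 0.187.

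Ahsg encodes fetuin-A, which keeps calcium phosphate from precipitating. It had log2 intensities of 12.23, 12.37 and 12.47 in Yap-off organoids and of 2.81, 3.04 and 2.84 in Yap-on organoids. Hepatocyte-labelled libraries gave 11.71, 10.52 and 11.80, and wild-type-labelled libraries 11.25, 9.25 and 10.90. The difference of Ahsg between Yap-on and Yap-off organoids was -9.46 ± 0.11 (SE, limma, adjusted p = 1.22e-07). All 3 Yap-on libraries were at or under background, so the change is a bound, at least 547-fold lower. This bound sets the Yap-off mean of 12.36 against the mean background of 3.26.

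Pzp encodes pregnancy zone protein, a large plasma protease inhibitor. It had log2 intensities of 11.16, 11.37 and 11.77 in Yap-off organoids and of 3.24, 3.24 and 3.17 in Yap-on organoids. In the hepatocyte-labelled libraries it gave 10.42, 10.71 and 10.36, and in the wild-type-labelled libraries 11.16, 9.0 and 10.34. The library labelled wild-type organoid 2 was lowest outside the Yap-on group, for Pzp as for Ahsg. The difference between Yap-on and Yap-off organoids was -8.22 ± 0.16 (SE, limma, adjusted p = 2.13e-07), with 2 of 3 Yap-on libraries at or under background.

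**Figure D2:**
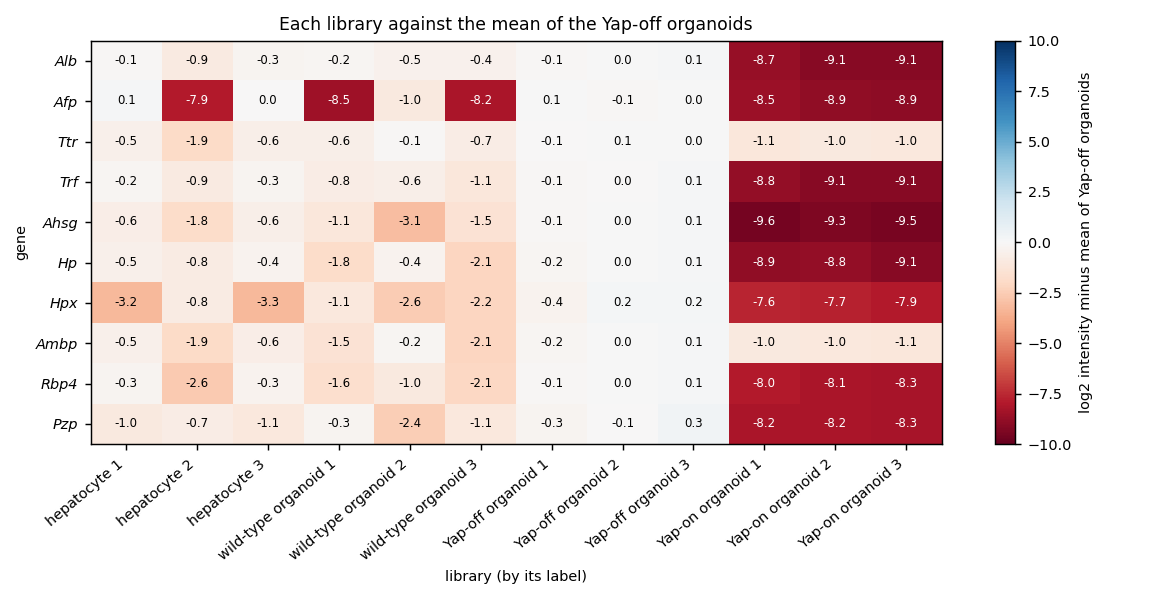
Log2 intensity of the 10 genes (rows) in each library (columns, by label) minus the mean of the Yap-off organoids, as colour and number. Yap-on libraries are 7 or more units lower for 8 genes and about 1 unit lower for Ttr and Ambp. Among the other libraries only Afp falls by more than 4 units, in hepatocyte 2 and wild-type organoid 1 and 3.

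Ttr and Ambp kept a signal that the other carriers lost. Relative to Alb in the same library, Ttr changed by 7.94 log2 units from Yap-off to Yap-on organoids and Ambp by 7.95. For each the exact two-sided permutation p was 0.1, the smallest that 3 against 3 allows. Relative to Alb, Trf changed by -0.01 (exact p = 0.8) and Hp by 0.06 (exact p = 1). The changes relative to Alb were 1.25 for Hpx, 0.86 for Rbp4, 0.76 for Pzp and -0.48 for Ahsg, each with an exact p of 0.1. Alb itself was near background in Yap-on organoids, so the changes of Ttr and Ambp relative to it are limited by that floor. For the other genes both readings there lay at or near the floor. A p of 0.1 cannot pass 0.05 in this design. Adjusted over the 9 ratios, which share Alb, the smallest p was 0.15.

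Against the wild-type-labelled libraries, Yap-on organoids were lower in 7 of the 10 genes, where 1.06% of all genes were called lower. The called genes were Alb, Trf, Ahsg, Hp, Hpx, Rbp4 and Pzp, with log2 differences of -8.63 to -5.80 (limma, adjusted p of 5.71e-05 to 0.00256). Afp gave -2.92 (95% interval -8.04 to 2.20, adjusted p = 0.446), its low wild-type libraries lying close to the Yap-on libraries. Ttr gave -0.58 (95% interval -1.04 to -0.13, adjusted p = 0.187) and Ambp 0.24 (-0.95 to 1.43, adjusted p = 0.781). Without the library labelled wild-type organoid 2, Ttr was called lower at -0.41 (adjusted p = 0.0343) and Ambp higher at 0.77 (adjusted p = 0.0258), while Afp gave -0.47 (adjusted p = 0.0757). In that fit 16.1% of all genes were called lower and 25.9% higher. The same 7 genes were called lower with and without that library.

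Against the hepatocyte-labelled libraries, Yap-on organoids were lower in the same 7 genes, where 2.54% of all genes were called lower. Their log2 differences ran from -8.57 for Alb to -5.30 for Hpx (limma, adjusted p of 1.80e-05 to 0.0116). Afp gave -6.15 (95% interval -11.82 to -0.48, adjusted p = 0.168), and Ttr and Ambp each gave -0.02 (adjusted p = 0.974 and 0.975). Without the library labelled hepatocyte 2 all 10 were called lower, where 14.7% of all genes were in the same fit, with Afp at -8.81 (adjusted p = 1.97e-07), Ttr at -0.46 (adjusted p = 0.0127) and Ambp at -0.45 (adjusted p = 0.0170). Hepatocyte 2 held the only low Afp of its group, so leaving it out set that Afp result beforehand. The call of Hpx was lost when any 1 Yap-on library was left out, at adjusted p of 0.0587 to 0.0642. These comparisons use the same Yap-on libraries as the comparison with Yap-off organoids, so they are not independent of it.

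Yap-off organoids were above all 3 wild-type-labelled libraries in 10 of 10 genes, as were 10.9% of all genes. None passed the test (limma, adjusted p of 0.124 to 0.392), where 0.246% of all genes were called higher. At an unadjusted p under 0.05 the count was 7 of 10, against 6.62% of all genes higher at that threshold. The differences ran from 0.35 for Alb to 5.86 for Afp with a median of 1.36, against 0.05 over all genes. Without the library labelled wild-type organoid 2, 8 of 10 passed as higher, where 13% of all genes did so in the same fit. Afp then differed by 8.31 (adjusted p = 1.53e-05), Hp by 1.97 (7.40e-04) and Rbp4 by 1.86 (0.00115), while Alb at 0.29 (0.297) and Pzp at 0.68 (0.178) did not pass. Wild-type organoid 2 held the only high Afp of its group, so leaving it out set the Afp result beforehand. Sex-linked genes also separated Yap-off from wild-type organoids, as given below.

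Against the hepatocyte-labelled libraries, Yap-off organoids were higher without overlap in 8 of 10 genes, as were 11.1% of all genes, the others being Alb and Afp. None passed (adjusted p of 0.133 to 0.708), where 0.482% of all genes were called higher, and 6 of 10 had an unadjusted p under 0.05, against 6.39% of all genes higher at that threshold. Hpx gave the widest difference after Afp, 2.43 (95% interval 0.67 to 4.20). Without the library labelled hepatocyte 2, 4 of 10 passed as higher, where 3.36% of all genes did so in the same fit: Hpx at 3.25 (adjusted p = 0.00133), Pzp at 1.05 (0.0298), Ahsg at 0.60 (0.0489) and Ttr at 0.58 (0.0417). Afp then gave -0.04 (0.916), so that its level in Yap-off organoids was close to that in hepatocyte 1 and 3.

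Between wild-type-labelled and hepatocyte-labelled libraries, none of the 10 genes passed (adjusted p of 0.985 to 0.990) and none had an unadjusted p under 0.05. Over all genes 0% were called in either direction. Afp had the widest interval, -10.90 to 4.43 around -3.24. With both of the libraries numbered 2 left out, 4 were called lower in wild-type organoids, where 15.1% of all genes were called lower and 9.69% higher in the same fit: Afp at -8.35 (limma, adjusted p = 1.29e-04), Rbp4 at -1.55 (0.00504), Hp at -1.54 (0.00372) and Ambp at -1.22 (0.0220). Hpx was then called higher at 1.62 (0.0274). Those fits compare 2 libraries with 2. They follow the split of the libraries seen in macrophage markers, and so do not stand as an independent comparison.

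**Figure D3:**
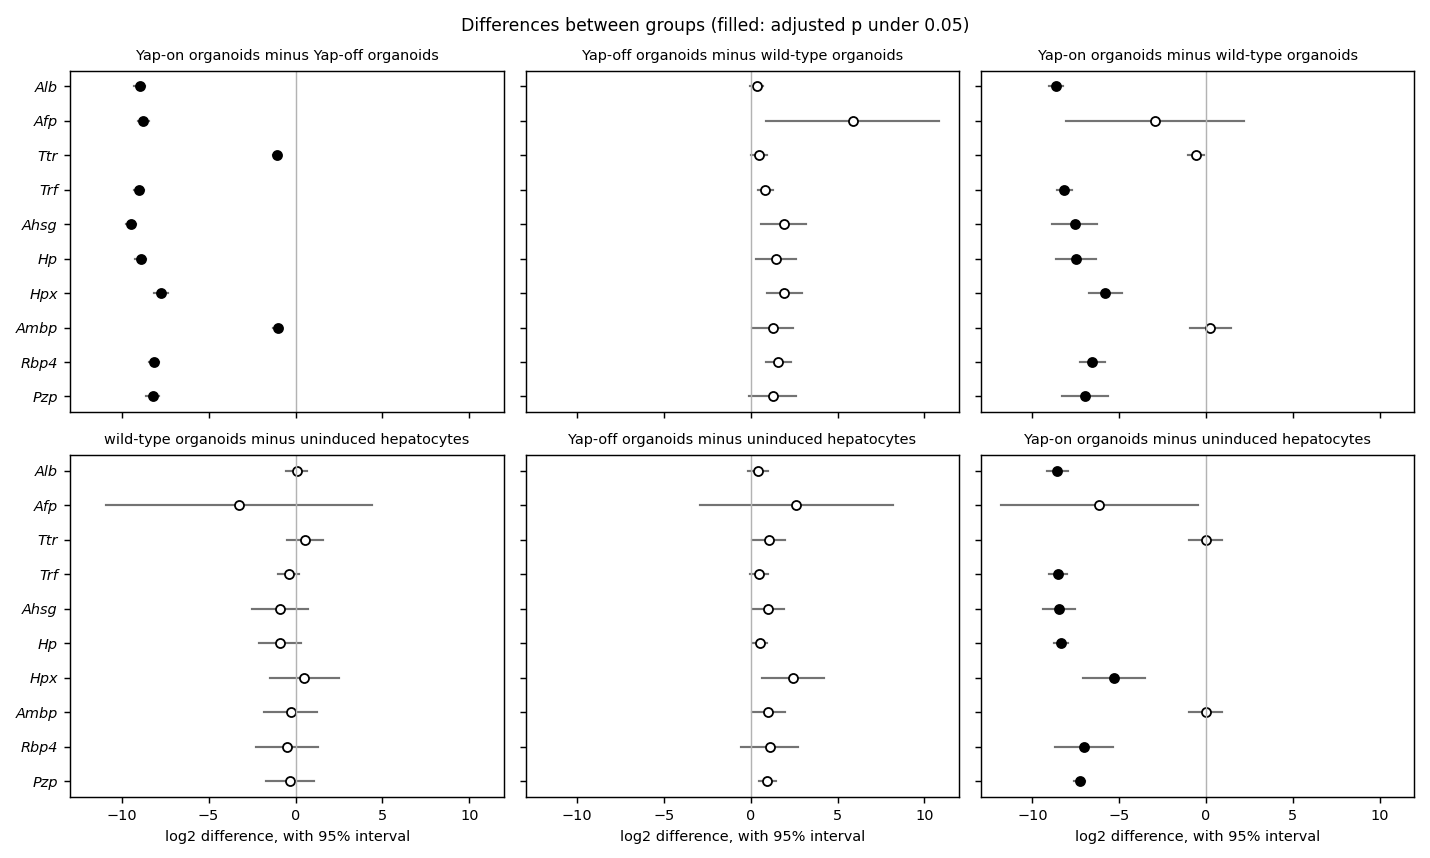
Log2 difference (horizontal axis) of each of the 10 genes in the 6 comparisons, with 95% intervals as lines and filled points where the limma adjusted p was under 0.05. Intervals are narrow in Yap-on minus Yap-off organoids, and widest for Afp wherever a hepatocyte or wild-type group is involved.

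The pattern of Afp over the libraries was set beside those of other genes. The nearest genes were taken as those with the smallest root mean square difference of log2 values over the 12 libraries, each gene centred on its own mean. For Afp these were Gpc3 at 0.68, which encodes the oncofetal proteoglycan glypican-3, Peg3 at 1.38, an imprinted gene, and Igfbp1 at 1.43, which encodes a secreted binding protein of insulin-like growth factors. Gpc3 gave 10.96, 3.37 and 11.05 in the hepatocyte-labelled libraries 1, 2 and 3 and 4.03, 9.96 and 3.49 in wild-type organoid 1, 2 and 3, high and low where Afp was high and low. Igfbp1 gave 11.67, 6.87 and 11.74 and 4.47, 7.44 and 5.19 in the same order, with wild-type organoid 2 closer to hepatocyte 2 than to hepatocyte 1 and 3. For Alb the nearest were Serpina1c at 0.35, whose probes may also read near-identical copies, and the fibrinogen genes Fga and Fgb at 0.51 each. Fibrinogen genes were also nearest to Trf (Fgb at 0.31) and Hp (Fgb at 0.26), and Fgg to Ahsg at 0.52. Ttr and Ambp had other nearest genes, Dennd5b at 0.22 and Akr7a5 at 0.19. The measure is not scaled to a gene's range. Ttr and Ambp varied least of the 10 genes over the libraries, so their smaller values do not show a closer match. Among the 10 genes, Alb and Trf were the closest pair at 0.24, Ttr and Ambp lay at 0.45, and Afp and Alb at 3.38.

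**Figure D4:**
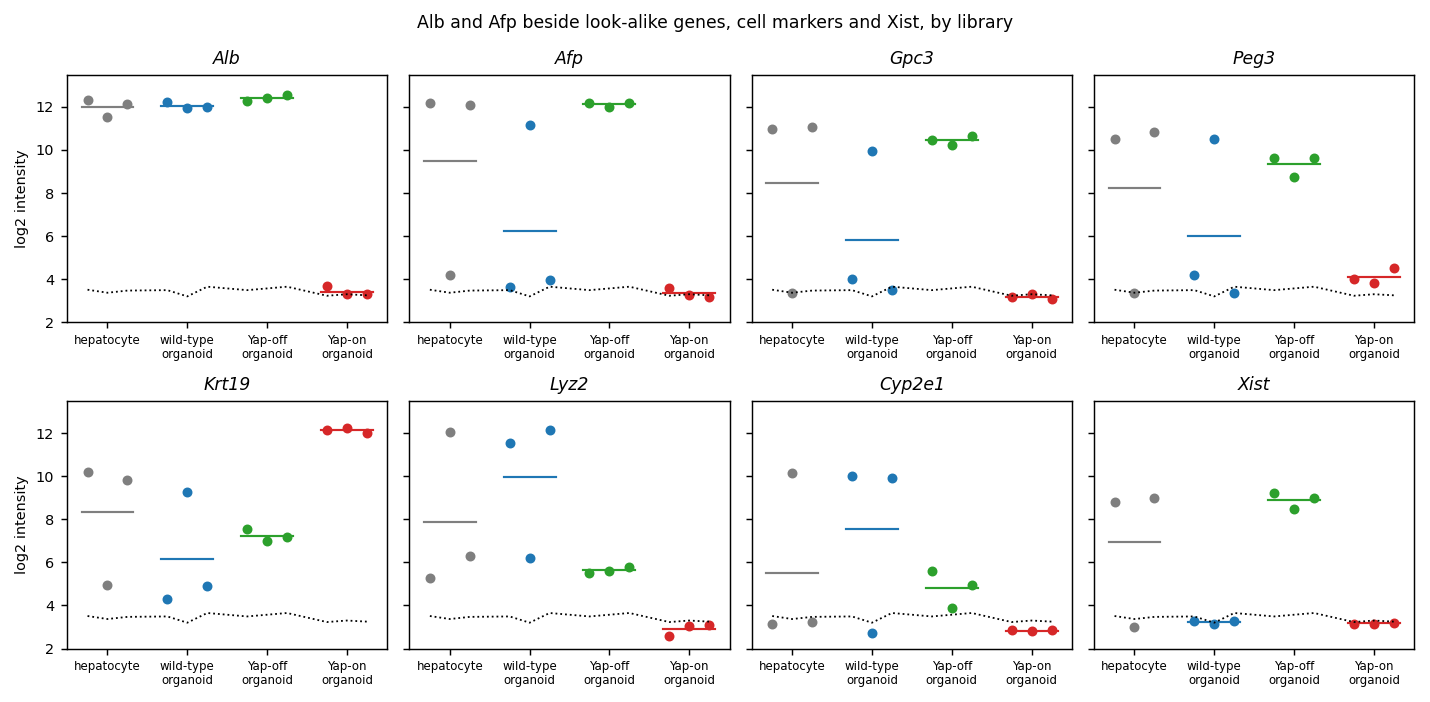
Log2 intensity (vertical axis) of Alb and Afp beside look-alike genes, markers of other cells and Xist in each library (dots, with group means as bars). Lyz2 is highest in hepatocyte 2 and wild-type organoid 1 and 3, in which Afp and Gpc3 are low.

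Other carriers and binding proteins of plasma fell with the 10 genes in Yap-on against Yap-off organoids. Of 19 measured, 15 fell, 0 rose and 4 did not pass, where 12% of all genes fell, with a median of -5.32. The list was chosen with earlier results of these data known. Apoh, a phospholipid-binding apolipoprotein, gave -8.03, Apoa2, of high-density lipoprotein, -7.88, Apom, a carrier of sphingosine-1-phosphate, -7.69, and Lrg1, a leucine-rich glycoprotein, -7.64. The genes that did not pass were Serpina6, Orm2, Igfals and Clu, named here after their values were seen. Serpina6 lay under array background in both groups and Igfals near it, so a change in them could not be read. A1bg, counted among those that fell, also lay under background in both groups. It gave 2.84 to 2.87 in Yap-off and 2.53 to 2.60 in Yap-on organoids, and was likewise named after its values were seen. Clu, which encodes the chaperone clusterin, gave 0.02 (adjusted p = 0.841) at means of 12.02 and 11.99. Tcn2 and Selenop fell but kept a signal far above background. Tcn2 lay at 9.71 to 9.91 in Yap-off and 8.71 to 8.94 in Yap-on organoids. Selenop lay at 11.32 to 11.54 and 7.75 to 8.40 in the same order. Both were named after their values were seen. A chosen list of 8 other genes from the macroglobulin and inter-alpha-trypsin inhibitor families, not the whole families, was also read. All 8 fell, with a median of -6.37, among them Mug1 at -8.11, Itih4 at -7.71, Itih3 at -7.13 and Itih2 at -6.80. Itih2 and Itih3 encode heavy chains that are joined to the bikunin chain of Ambp. Mug1 and Mug2 are near-identical copies that the probes may not tell apart.

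Receptors and partners of the carriers were mixed, with 9 of 18 falling, 2 rising and 7 not passing, and a median of -0.50. Hamp, the iron hormone hepcidin, gave -6.46 and may share probe signal with Hamp2. Tfr2, the liver's transferrin receptor and iron sensor, gave -4.44, Asgr1, a subunit of the asialoglycoprotein receptor, -4.20, and Rbp2, an intracellular retinol carrier, rose by 3.89. Among 18 transcription factors known to act on Alb and Afp, 11 fell and 4 rose, where 12% of all genes fell and 19.1% rose, with a median of -0.80. In the fit of all 12 arrays 7 fell and 1 rose. Prox1 gave -4.01, Foxa3 -3.07, Nr2f2 2.15 and Nr5a2 -2.08. Hnf4a, a nuclear receptor central to hepatocyte genes, gave -0.98 (adjusted p = 7.81e-04). Zbtb20 and Zhx2, repressors of Afp in the mouse liver, gave -0.89 (0.0121) and -0.03 (0.949). Hnf4a, Zbtb20 and Zhx2 were named after their values were seen.

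**Figure D5:**
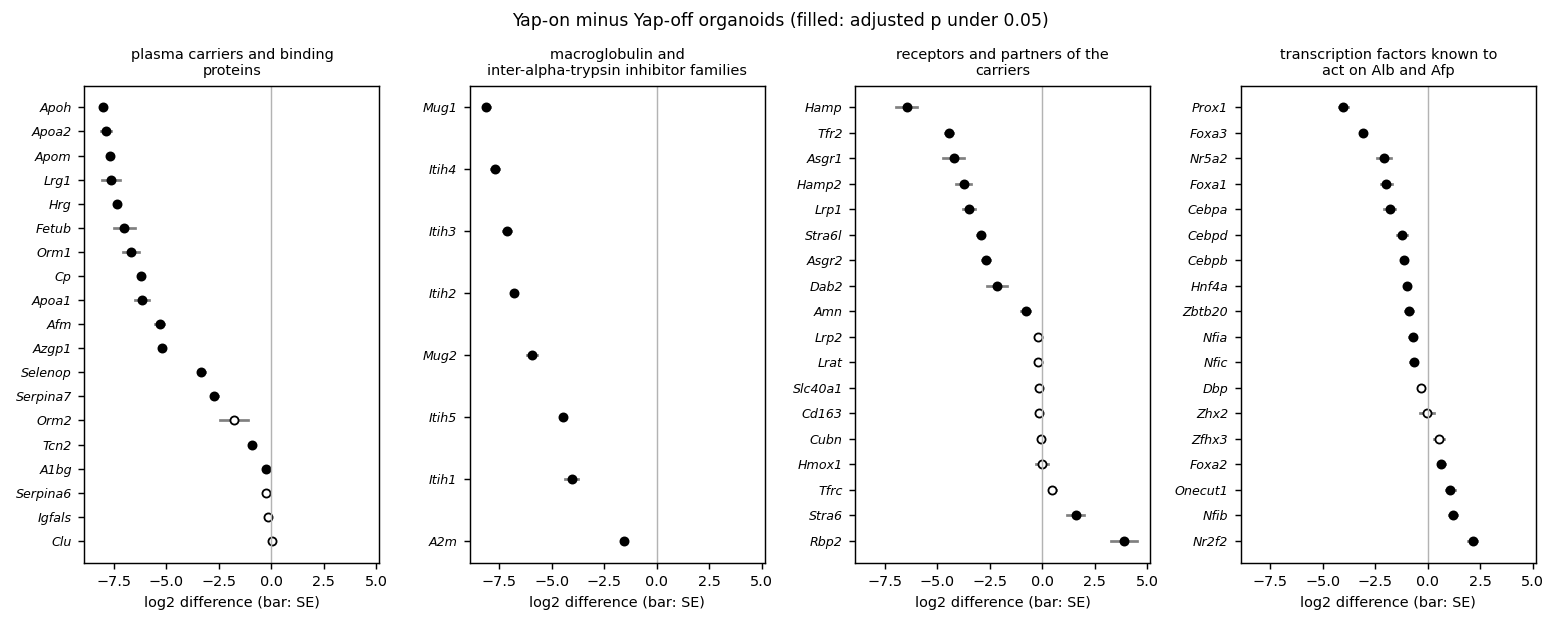
Log2 difference between Yap-on and Yap-off organoids (horizontal axis) for the measured genes of each list, with standard errors as bars and filled points where the limma adjusted p was under 0.05. Carriers and macroglobulin genes lie mostly far below 0, and receptors and transcription factors on both sides of it.

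Markers of other cell types were set beside these changes. Over all genes 12% were called lower and 19.1% higher in Yap-on than in Yap-off organoids, and the counts below are read beside these shares. Of 13 measured hepatocyte markers outside the 10 genes, 13 were lower in Yap-on than in Yap-off organoids, with a median of -6.41. Of 9 biliary and ductal markers, 8 were higher and 1 did not pass, with a median of 2.97. Their summed intensity ran from 1537 to 2124 in Yap-off and from 11152 to 12640 in Yap-on organoids. Krt19, a duct keratin, rose by 4.88 and Epcam by 4.11. Of 11 macrophage markers, 4 were lower, 1 was higher and 6 did not pass, with summed intensities of 198 to 286 in Yap-off and 200 to 218 in Yap-on organoids. The macrophage count was 0 in either direction with all 12 arrays in the fit. Of the endothelial markers 0 of 8 were called, at summed intensities of 70 to 76 and 64 to 66. Of 8 stellate and fibroblast markers 3 were lower, at summed intensities of 344 to 386 in Yap-off and 84 to 88 in Yap-on organoids. Most of that difference came from Reln, at 7.62 to 8.02 in Yap-off and 3.43 to 3.58 in Yap-on organoids on the log2 scale. Dcn lay at 5.24 to 6.02 and 3.21 to 3.38, and the other markers at 4.62 or below in both groups. Reln and Dcn were named after their values were seen. Of 9 lymphocyte and neutrophil markers 5 were lower, at summed intensities of 111 to 122 and 94 to 107, and most of these lay near array background in both groups. The latter count was 1 with renewed quantile normalization, the filter on low genes or the replicate block, and 0 with all 12 arrays. The part of these cell types in the changes of the 10 genes was not tested.

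Sex-linked genes also moved between Yap-on and Yap-off organoids. Xist, the RNA of the inactive X chromosome, had a log2 intensity of 8.49 to 9.20 in Yap-off and of 3.14 to 3.20 in Yap-on organoids, a change of -5.73. The Y-linked genes Eif2s3y, Kdm5d and Uty rose by 4.65, 3.21 and 3.36. Sex of the animals and Yap in culture therefore cannot be told apart in this comparison. Xist was also high in the hepatocyte-labelled libraries 1 and 3, at 8.82 and 9.0, and between 3.00 and 3.30 in hepatocyte 2 and all 3 wild-type libraries. Sex therefore cannot be told apart from group between Yap-off and wild-type organoids either. The same holds for hepatocyte 1 and 3 against Yap-on organoids or against wild-type organoid 1 and 3. In the library labelled wild-type organoid 2, Afp was 11.16 while Xist was 3.14.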

How the data were processed

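RNA of 12 libraries, 3 per group by the labels' titles, was measured on MoGene 1.0 ST arrays. As deposited, each value is an intensity that the authors made with RMA (background subtraction, quantile normalization, probe summary), per the submitters' processing notes, which give no version. These intensities lie on a linear scale, so log2 was taken here. Median intensity per array was 13.56 to 15.58 and the highest 7908 to 9588, and the number of arrays limits the precision. Detection calls were not used here. The build behind the array annotation was not given in the sources used.

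Of 34760 array rows, 21640 named exactly 1 gene, giving 19937 genes, each by its row with the highest mean. No filter on low values was applied. Each of 6 comparisons was fitted in limma 3.58.1 (R 4.3.3, lmFit and eBayes) on its own 6 arrays, with Benjamini-Hochberg adjustment over all genes and calls at an adjusted p under 0.05. Only those arrays were used because spreads differed: the median SD over the 10 genes was 0.74 in hepatocyte, 0.84 in wild-type, 0.13 in Yap-off and 0.15 in Yap-on libraries. Fits of Yap-on or Yap-off organoids against hepatocyte or wild-type libraries still assume 1 spread per gene for groups that varied unequally. Ratios within a library were compared by an exact permutation test.

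The genes, lists and alternatives were chosen with earlier results of these data known. The genes named are the 10, up to 4 of each related list with the largest absolute difference between Yap-on and Yap-off organoids, leading cell markers, sex-linked genes and the 3 genes nearest to each of the 10. Others are marked in the text. Same-numbered libraries deviated from their group means with correlations of 0.07, 0.03 and -0.06 between Yap-on and Yap-off organoids, and no comparison had all 3 over 0.1, so the numbers were not taken as pairs. Alternatives were renewed quantile normalization, median centring, other rows per gene, a filter on the lowest 30% of genes, all 12 arrays, an intensity trend, array weights, a replicate block, and leaving out libraries. For the counts of the related lists these were added after the data were seen. Figures were drawn with matplotlib 3.10.9.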

Additional observations from a re-analysis of the deposited data

How the results depend on the processing

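In Yap-on minus Yap-off organoids all 10 genes were called lower under every alternative run except all 12 arrays, where Ttr (adjusted p = 0.0632) and Ambp (0.187) missed the threshold. Genes called in this comparison fell from 6212 to 2283 with all 12 arrays, and ranged from 3763 to 7853 with 1 library left out. For Yap-off minus wild-type organoids the 61 genes called became 520 with all 12 arrays, 5252 with array weights, 0 with the replicate block and 4639 without wild-type organoid 2, and ranged from 7 to 4639 with 1 library left out. The members called higher there became 8 with array weights and 8 without wild-type organoid 2 (0 to 8 with 1 library left out). For Yap-on minus wild-type organoids 699 became 1091 with all 12 arrays, 9111 with array weights, 239 with the replicate block and 8378 without wild-type organoid 2 (262 to 8378). There 0 to 1 of the 10 genes were called higher with 1 library left out, 1 without wild-type organoid 2, and 7 to 8 lower. Ambp turned to -0.18 without wild-type organoid 3, with a range of -0.18 to 0.77. For wild-type organoids minus hepatocytes 0 genes called became 10 with all 12 arrays, 1057 with array weights and 4947 without both hepatocyte 2 and wild-type organoid 2 (0 to 43 with 1 left out). Of the 10 genes, 1 was called lower with array weights, and 1 higher and 4 lower without both. In that comparison Alb turned to -0.01 with median centring, 0.00 with array weights, -0.17 without hepatocyte 2, -0.02 without wild-type organoid 1 and -0.11 without both. Pzp turned to 0.44 with array weights, 0.26 without wild-type organoid 2 and 0.36 without both, Ambp to 0.16 without wild-type organoid 3, and Ttr to -0.05 without both. With 1 library left out Alb ranged from -0.17 to 0.23, Pzp from -0.83 to 0.26 and Ambp from -0.79 to 0.16. For Yap-off organoids minus hepatocytes 143 became 378 with all 12 arrays, 1370 with array weights, 0 with the replicate block and 1846 without hepatocyte 2 (1 to 1846). The 10 genes then had 2 called higher with array weights and 4 without hepatocyte 2 (0 to 4), and Afp turned to -0.04 (-0.04 to 3.97 with 1 library left out). For Yap-on organoids minus hepatocytes 1759 became 5395 with array weights, 663 with the replicate block and 6468 without hepatocyte 2 (672 to 6468), and 6 to 10 of the 10 genes were called lower. Ttr turned to 0.09 with renewed quantile normalization, 0.22 without hepatocyte 1, 0.18 without hepatocyte 3 and 0.01 without Yap-on organoid 1. Ambp turned to 0.04, 0.23 and 0.16 under the first 3 of these settings and to 0.01 without Yap-on organoid 3. With 1 library left out Ttr ranged from -0.46 to 0.22 and Ambp from -0.45 to 0.23. The replicate block changed no call of the 10 genes in any comparison. Among the related lists, the rising receptors numbered 1 rather than 2 with array weights, and 1 to 3 with 1 library left out. With all 12 arrays, 1 transcription factor rose and 7 fell, 4 biliary markers were called higher, 1 stellate marker lower, and 0 macrophage, lymphocyte or neutrophil markers in either direction. With 1 library left out, lower calls numbered 2 to 7 for stellate, 2 to 6 for macrophage and 1 to 5 for lymphocyte and neutrophil markers. The causes were not tested. Fits that leave a group with 2 libraries assume that they vary like the other group. Where signal lay near array background, differences are limited by that floor.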
